A study of Mus musculus with 30 samples.

Results

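Gene expression in the intermediolateral column (IML) of the adult mouse spinal cord was compared with that in the lateral motoneurons (LMN) of the same animals. The comparison took every array that the labels assign to IML or LMN, which was 20 of the 30 arrays of the series and 10 of its 15 samples. The remaining samples, medial motoneurons (MMN), were kept out of the model and are given below only as values. All animals were sham-operated controls, and every pool came from the same 5 of them, each animal giving 400 laser captures of each cell type. The RNA of an animal and pool was split, amplified in 2 portions and hybridised to 2 Affymetrix arrays, called Set 1 and Set 2. Each sample was thus a pool of captures from 1 animal, and the replicates were separate animals. The sources used here give no strain, sex or spinal level of the captures, no age beyond adult, and no details of the sham operation. All values are log2 intensities, differences are IML less LMN, errors of differences are standard errors (SE) and errors of means are SDs over 5 animals. The number of animals limits the precision. Because samples were pools of captures, fewer cells of a type and less RNA per cell cannot be told apart.

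Motoneurons of the IML are preganglionic: their axons leave the spinal cord to end on autonomic ganglia and on the adrenal medulla, and through them the cord controls heart, vessels, gut and glands. They use acetylcholine together with neuropeptides, many make nitric oxide, and they are smaller cells with thin axons. Motoneurons of the lateral motor column innervate the muscles of the limbs. The alpha motoneurons among them are among the largest neurons of the cord, with thick, heavily myelinated axons rich in neurofilament and a dense inhibitory input through glycine and GABA.

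The genes taken here as markers of the pools were the PACAP precursor Adcyap1 and the zinc finger transcription factor Zic1 for IML, and the transcriptional repressor Bcl6 for LMN. Their promoters are shown because these 3 are the called genes among the markers chosen for the comparison. Each line holds the 250 bases before an annotated start, 5′ to 3′ on the strand of the gene, from RefSeq on the GRCm38.p6 build. Capitals mark TGACGTC, which is the cyclic AMP response element TGACGTCA without its last base, together with the TATA box TATAAA and the GC box GGGCGG. Where the element lies on the opposite strand it reads GACGTCA.
Adcyap1, second of 2 annotated starts, chr17:93198918-93199167, plus strand: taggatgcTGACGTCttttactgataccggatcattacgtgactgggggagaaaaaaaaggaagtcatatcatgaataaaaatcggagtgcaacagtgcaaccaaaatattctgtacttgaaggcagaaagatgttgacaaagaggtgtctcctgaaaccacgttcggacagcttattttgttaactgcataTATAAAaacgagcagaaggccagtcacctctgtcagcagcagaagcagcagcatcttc
Zic1, chr9:91365769-91366018, minus strand: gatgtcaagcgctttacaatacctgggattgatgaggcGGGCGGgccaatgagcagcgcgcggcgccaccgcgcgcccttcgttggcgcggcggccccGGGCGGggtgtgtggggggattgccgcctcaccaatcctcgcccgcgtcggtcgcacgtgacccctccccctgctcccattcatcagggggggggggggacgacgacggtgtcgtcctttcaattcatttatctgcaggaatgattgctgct
Bcl6, first of 2 annotated starts, chr16:23988853-23989102, minus strand: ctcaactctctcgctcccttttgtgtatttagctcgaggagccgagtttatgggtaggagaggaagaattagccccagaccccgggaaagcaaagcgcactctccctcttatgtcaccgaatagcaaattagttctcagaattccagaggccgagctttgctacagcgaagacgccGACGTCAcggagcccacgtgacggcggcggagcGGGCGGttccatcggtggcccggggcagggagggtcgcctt

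For genes with 2 starts, the start shown is the one with more of these motifs. At the Adcyap1 start shown, TGACGTC began 242 bases before the start and TATAAA 58 bases before it. At the other Adcyap1 start TGACGTC began 91 bases before the start, and the window held no TATA box. The Bcl6 window shown held the element on the opposite strand 74 bases before the start and a GC box 41 bases before it. The window of the other Bcl6 start held none of the marked motifs. The Zic1 promoter held 2 GC boxes and neither of the other motifs. Searched on both strands in windows of the same length, TGACGTC occurred in 2.78% of 32851 mouse promoters, the full TGACGTCA, which contains it, in 1.55%, TATAAA in 12.4% and GGGCGG in 32.7%. A match describes the letters of the window and is no evidence of binding. Of the 30 genes named below for the size of their difference, 20 had a promoter in the table.

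Calls were made by limma with the animal as a block, at a Benjamini-Hochberg adjusted p under 0.05 over all probe sets. The IML and LMN samples differed in 705 of 12422 probe sets, or 5.68%. Of these, 451 probe sets were higher in IML (3.63%) and 254 were lower (2.04%). The higher ones also differed by more: their median difference was 0.61, against -0.44 for the lower ones, and of the 95 called probe sets that differed at least 2-fold, 84 were higher in IML and 11 lower. Over all genes the median difference was -0.02. Each of the 705 differed in 1 direction throughout, in 5 of 5 animals and in both Set 1 and Set 2. Selection by a small paired p largely requires this, and both sets entered the tested values, so it is no separate support. In 402 probe sets, or 3.24%, all 5 IML values lay on one side of all 5 LMN values, and 245 of these were among the called ones.

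**Figure D1:**
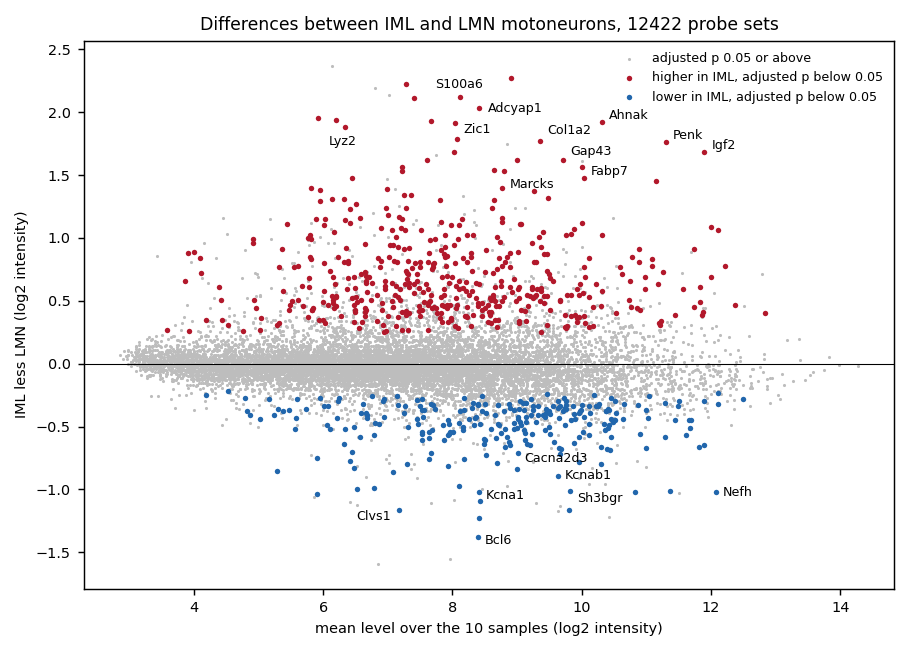
Each point is 1 of 12422 probe sets; the horizontal axis is the mean log2 intensity over the 10 samples and the vertical axis the difference between IML and LMN (log2). The 451 probe sets higher in IML (red) reach above 2, while the 254 lower ones (blue) reach down to -1.38, and the labelled genes are among those named in the text.

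Counted by gene, with each of 8251 genes represented by its probe set of highest mean, 349 genes were higher in IML (4.23%) and 192 lower (2.33%). Every count of called list members below is to be read beside these shares. The size of the differences varied between animals. Over the called probe sets the median size was 0.37 in animal 2, the smallest, and 0.46 to 0.63 in the other 4. The LMN sample of animal 2 was at the end of its pool in several genes picked after their values were seen. It had the lowest LMN values of Slc18a3, Bcl6, Tpd52l1 and Nefh and the highest of Zic1, Gap43 and Penk. This did not hold for the marker Adcyap1, at 7.21 in LMN of animal 2 and highest in animal 4 (9.11). Without animal 2, 420 probe sets were called, 294 higher and 126 lower. Without animal 5, the count was 113, the smallest of the 5 fits that left out an animal, and without animals 1, 3 and 4 it was 328, 269 and 347.

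Single calls varied with the animal left out and with the probe set. A fit with fewer animals has less power, so a lost call need not mean that it rested on 1 animal. Of the 98 called genes that met the rule for naming, 39 were called in all 5 fits that left out an animal. Tuba4a, Ryr2, Plxnb2, Atf3, Cycs, Psmc6, Psmd12 and Cdh5 were called in none of those fits, though Psmd12 was even over the animals, at -0.32 to -0.19. A further 22 were called in 1 of those fits: S100a6, Anxa1, Ahnak, Lyz2, Vwf, Penk, 1110008P14Rik, Irx3, Ykt6, Slc44a1, Meis1, Scg2, Stmn4, Kcna5, Atp1b3, Glrb, Vamp3, Kit, Osmr, Hk2, Rps19 and Elavl4. Of 140 called genes with several probe sets, 50 had another probe set with a difference of opposite sign, and for 2 genes that other probe set was called. Another probe set differed by -0.01 for Col1a2, 0.01 for Vwf, -0.02 for Apoe, -0.08 for Stmn1, -0.02 for Kcna5, 0.04 for Scn8a and 0.05 for Il6st. It differed by -0.10 for Ttc39b, -0.06 for Pdgfra, -0.04 for Fgf11, 0.09 for Vamp2, 0.02 for Acvr2a and -0.02 for Fmod. For Lyz2 it was 0.14, for Csf1r -0.16 and for Ctsc 0.02. Those calls rest on the brighter probe set, and the list is not complete.

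Genes for neuropeptides were among the largest differences in favour of IML. Adcyap1 encodes PACAP, a cotransmitter of preganglionic neurons. In animals 1 to 5 its level was 8.88, 9.35, 9.84, 10.40 and 8.63 in IML and 6.81, 7.21, 6.85, 9.11 and 6.98 in LMN. The LMN sample of animal 4 was above the IML samples of animals 1 and 5, so the pools overlapped, yet within each animal IML was higher. The difference was 2.03 ± 0.22, or 4.07-fold (limma adjusted p = 0.0088). It was called in all 5 fits that left out an animal.

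Penk, the precursor of the enkephalins, had IML values of 12.65, 12.02, 12.04, 11.82 and 12.37 in animals 1 to 5 and LMN values of 9.88, 11.12, 11.02, 10.58 and 9.51. Every IML sample was above every LMN sample, and animals 1 and 5 were lowest in LMN. The difference was 1.76 ± 0.33, or 3.38-fold (limma adjusted p = 0.0326). It missed the threshold without animal 1, 3, 4 or 5, with differences of 1.5, 1.94, 1.89 and 1.48 and adjusted p of 0.0652, 0.051, 0.065 and 0.0886. The Penk probe set is of a type that can bind related transcripts, and the 2 other Penk probe sets differed by 0.10 and 0.77.

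Tac1, which encodes substance P, had a larger mean difference than either, 2.14 ± 0.65, but was not called (adjusted p = 0.11). Its differences were 3.14, 1.40, 0.27, 5.02 and 0.86 in animals 1 to 5. The IML samples did not overlap with the LMN samples, but the IML values spread from 6.93 to 10.34, with animals 4 and 1 high. Scg2, a granin that is packed into dense-core vesicles and cleaved to secretoneurin, was higher by 0.54 ± 0.12 (adjusted p = 0.0493). Its call held in 1 of the 5 fits that left out an animal, the fit without animal 4.

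In the group of preganglionic and visceral motoneuron genes, 2 of 12 measured genes were called higher, Adcyap1 and Penk, against 4.23% of all genes, and none lower, and the median difference was 0.14. Among 24 neuropeptide precursors the same pair was called and the median was 0.03, close to that of all genes. Adcyap1 was a marker chosen for the comparison with earlier results of these data known, so neither count is separate support. Of 13 granins and prohormone-processing genes, Scg2 alone was called, with a median of 0.12. Nos1, the neuronal nitric oxide synthase, was at 5.72 ± 0.11 in IML and 5.69 ± 0.16 in LMN (difference 0.03 ± 0.05, adjusted p = 0.766). The arrays came with no detection calls, so whether its probe set detected the transcript is unknown.

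Several genes of growing and remodelling axons were higher in IML. Of 20 measured growth-associated genes 10 were called higher, against 4.23% of all genes, none was called lower and 10 were not called. The difference was negative in 5 of the 20, among them Stmn2 (-0.34 ± 0.10), a stathmin of growth cones. The median difference of the group was 0.33 over the 20 genes, and 0.33, 0.32, 0.22, 0.52 and 0.20 in animals 1 to 5. The called members were Gap43, Marcks, Ncam1, Stmn1, Klf6, Stmn4, Atf3, Marcksl1, Tmsb4x and Basp1. In the same samples the meningeal and fibroblast markers had a median difference of 1.37 and the microglia and macrophage markers of 0.36, and their part in these differences was not tested.

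Gap43, a membrane protein of growth cones and of some adult terminals, was at 10.46, 10.75, 10.50, 10.72 and 10.17 in IML and at 7.61, 9.96, 9.26, 9.46 and 8.21 in LMN, in animals 1 to 5. The IML values lay within a narrow band and the LMN values spread over more than 2 units, without overlap. The difference was 1.62 ± 0.27 (limma adjusted p = 0.0256), and it missed the threshold without animals 3, 4 and 5 (1.72, 1.71 and 1.54, adjusted p = 0.051, 0.0565 and 0.0881). Marcks, an actin-binding substrate of protein kinase C, was at 9.56, 9.49, 9.71, 9.22 and 9.39 in IML and at 7.62, 8.49, 8.44, 7.88 and 7.94 in LMN. Every IML sample was again above every LMN sample, and the difference of 1.40 ± 0.13 (adjusted p = 0.0075) was called in all 5 fits that left out an animal.

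Ncam1, the neural cell adhesion molecule, was higher by 1.32 ± 0.13 (adjusted p = 0.0075), although its 2 other probe sets differed by -0.03 and 0.80. Stmn1 and Stmn4, stathmins that destabilise microtubules, were higher by 0.69 ± 0.10 and 0.56 ± 0.12. Klf6 and Atf3, transcription factors that neurons induce after axon injury, differed by 0.61 ± 0.09 and 0.46 ± 0.10. The Atf3 call was lost whichever animal was left out (adjusted p from 0.0608 to 0.114), and its 2 other probe sets differed by about 0 and by 0.13. Atf3 was also the 1 called gene of 19 immediate early genes, whose median difference was 0.07.

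Further genes higher in IML, several with roles in neurons, differed by less but with small errors. Bex4, a small adaptor protein of the brain-expressed X-linked family, was at 8.94, 9.00, 8.50, 8.59 and 8.65 in IML and 7.83, 7.83, 7.65, 7.63 and 7.63 in LMN. The lowest IML value was above the highest LMN value, and the difference of 1.02 ± 0.06 had the smallest p of the genes named (limma adjusted p = 0.00401, shared with Vtn). Ahi1, a protein of the primary cilium that is mutated in Joubert syndrome, was higher by 1.30 ± 0.10. Pkia, an inhibitor of protein kinase A, was higher by 0.96 ± 0.09, and Hpca, the calcium sensor hippocalcin, by 0.99 ± 0.10 (each with an adjusted p of 0.0075). Bmp6, a secreted ligand of the BMP family, was higher by 0.84 ± 0.07.

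**Figure D2:**
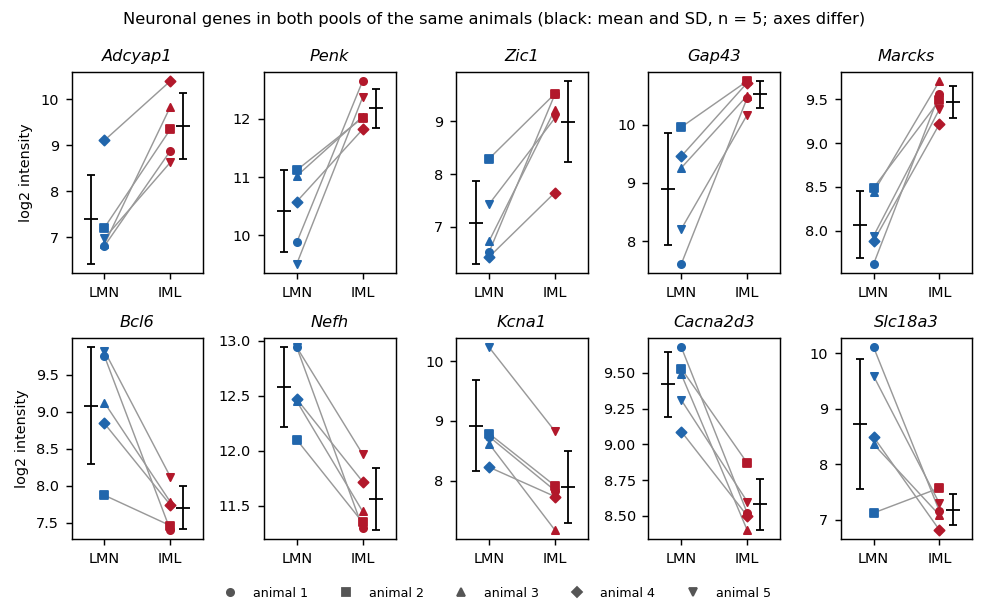
Levels (log2 intensity, axes differ) of 10 genes in LMN (blue) and IML (red), with a line joining the samples of 1 animal and black bars giving mean and SD over 5 animals. In the upper row every line rises from LMN to IML; in the lower row every line falls except that of Slc18a3 in animal 2.

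Among 38 transcription factors of spinal neuron identity 3 were called higher, Zic1, Ebf3 and Meis1, and 1 lower, Irx3, with a median of 0.01. These shares were not far from the 4.23% and 2.33% of all genes. Zic1 marks dorsal progenitors and their descendants in the developing cord. It was at 9.51, 9.52, 9.22, 7.65 and 9.06 in IML and at 6.52, 8.29, 6.73, 6.43 and 7.43 in LMN, in animals 1 to 5. The IML sample of animal 4 was low and the LMN sample of animal 2 high, so the pools overlapped. The difference was 1.91 ± 0.27 (limma adjusted p = 0.0166), and without animal 5 it was 1.98 with an adjusted p of 0.0569.

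Ebf3, a transcription factor of differentiating neurons, was higher by 0.72 ± 0.10 and Meis1, a cofactor of Hox proteins, by 0.48 ± 0.10. Irx3, a homeobox factor of the developing cord, differed by -0.99 ± 0.21 (adjusted p = 0.0415). It was nearly equal in the pools of animal 2 (-0.17) and differed by -1.81 in animal 5, and the call held in 1 of the 5 fits that left out an animal, the fit without animal 2. Hox genes set position along the cord, and the labels give no level for the captures. None of 31 Hox genes was called by limma, 4 had an unadjusted p under 0.05, and the median was -0.04.

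Bcl6 had the largest difference of the called genes that were lower in IML and met the rule for naming by size. Its levels in animals 1 to 5 were 7.40, 7.46, 7.78, 7.74 and 8.12 in IML and 9.75, 7.87, 9.12, 8.84 and 9.82 in LMN. All IML samples were low, and the LMN sample of animal 2 lay among them, the 1 overlap. The difference was -1.38 ± 0.25 (limma adjusted p = 0.0288), and it missed the threshold without animals 3, 4 and 5 (-1.39, -1.45 and -1.30, adjusted p = 0.0694, 0.0635 and 0.0963). Mmp9, a matrix metalloproteinase of fast alpha motoneurons, differed by -0.97 ± 0.19 (adjusted p = 0.037), and by -0.49 in its other probe set.

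Tpd52l1, a coiled-coil protein of vesicle traffic, had a larger mean difference than Bcl6, -1.59 ± 0.37, and was not called (adjusted p = 0.0535). It was at 6.40, 6.02, 6.05, 5.77 and 6.06 in IML and at 8.84, 6.07, 7.15, 7.41 and 8.79 in LMN. In animal 2 the pools were level, with a difference of -0.04, and in the other 4 animals LMN was higher. Without animal 2 it was called (-1.98, adjusted p = 0.0279). Of 4 measured skeletal alpha motoneuron genes, Bcl6 and Mmp9 were called lower and none higher, against 2.33% of all genes lower. Bcl6 was a marker chosen for the comparison with earlier results of these data known, so this count is no separate support. All 4 mean differences were negative, with a median of -0.88. The other 2 were not called: Cd24a (-0.79 ± 0.62) was higher in IML in 3 of 5 animals and Vipr2 (-0.16 ± 0.09) in 2 of 5. None of 5 gamma and slow motoneuron genes was called by limma (1 at an unadjusted p under 0.05), with a median of -0.09.

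Nefh, the heavy neurofilament subunit that builds the calibre of large axons, was at 11.30, 11.35, 11.45, 11.72 and 11.97 in IML and at 12.94, 12.10, 12.45, 12.47 and 12.94 in LMN. Every IML sample was below every LMN sample. The difference was -1.02 ± 0.13, or 2.03-fold (limma adjusted p = 0.0133), and without animal 5 it was -1.03 with an adjusted p of 0.0516. Of 28 genes of neurofilaments and the axonal cytoskeleton, Nefh and the tubulin Tuba4a were called lower and the stathmins Stmn1 and Stmn4 higher. Of all genes 2.33% were lower and 4.23% higher, and the median of the group was -0.12 beside -0.02 over all genes. Of 25 kinesin, dynein and dynactin genes, the motors of axonal transport, none was called by limma, while 10 had an unadjusted p under 0.05. The difference was negative in 22 of them, with a median of -0.13 that was negative in 5 of 5 animals, and it was -0.60 ± 0.19 for the kinesin heavy chain Kif5b.

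Several channel subunits of the axon and the presynaptic terminal were lower in IML. Kcna1, a Kv1 potassium channel of the juxtaparanode, was at 7.84, 7.92, 7.18, 7.74 and 8.83 in IML and at 8.74, 8.79, 8.62, 8.23 and 10.23 in LMN. Animal 5 was high in both pools, so the pools overlapped while every animal was lower in IML. The difference was -1.02 ± 0.14 (limma adjusted p = 0.0158), and without animal 5 it was -0.93 with an adjusted p of 0.0569. Kcnab1, a cytoplasmic beta subunit of the same channels, differed by -0.89 ± 0.11 (adjusted p = 0.0113) with no overlap, and by -0.53 in its other probe set. Kcna5, another Kv1 subunit, went the opposite way by 0.58 ± 0.10. These were the 3 called of 41 potassium channel genes, 2 lower and 1 higher, against 2.33% and 4.23% of all genes. The difference was negative in 34 of the 41, with a median of -0.07 beside -0.02 over all genes. Such sign counts were not particular to channel genes. Negative differences made up 21 of 26 among receptors for monoamines and acetylcholine, with 0 at an unadjusted p under 0.05, and 39 of 54 among chaperones.

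Cacna2d3, an auxiliary alpha2delta subunit that carries calcium channels to the terminal, was at 8.52, 8.87, 8.40, 8.50 and 8.60 in IML and at 9.68, 9.53, 9.49, 9.09 and 9.31 in LMN. Every IML sample was below every LMN sample, with a difference of -0.84 ± 0.10 (limma adjusted p = 0.0113). Cacng2, or stargazin, which also escorts AMPA receptors to the synapse, differed by -0.64 ± 0.07 (adjusted p = 0.00899). They were the 2 called of 12 voltage-gated calcium channel genes, against 2.33% of all genes called lower. Of the 12, 11 had a negative difference, with a median of -0.10 beside -0.02 over all genes. Of 12 sodium and HCN channel genes, Scn8a, a sodium channel that sets the threshold for firing at the start of the axon, differed by -0.48 ± 0.08, and Fgf11, a channel-associated growth factor homologue, differed by -0.64 ± 0.08. These were the 2 called of that group, against 2.33% of all genes called lower, and its median was -0.02, as over all genes.

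Of 14 measured GABA and glycine receptor genes 2 were called lower, against 2.33% of all genes, and none higher. The mean difference was negative in each of the 14, with a median of -0.09 beside -0.02 over all genes. By animal the median was -0.26, 0.06, -0.02, -0.20 and -0.17, so animals 2 and 3 were near 0. Those called were Glrb, the beta subunit that anchors glycine receptors (-0.51 ± 0.10, adjusted p = 0.0326), and Gphn, the scaffold gephyrin to which it binds (-0.52 ± 0.07, adjusted p = 0.0147). The Glrb call held in 1 of the 5 fits that left out an animal, the fit without animal 2, and the Gphn call in all but the fit without animal 5 (adjusted p = 0.0532). No gene was called by limma among 13 glutamate receptors (2 at an unadjusted p under 0.05, median -0.02) or 26 receptors for monoamines and acetylcholine (0 at that level, median -0.03).

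Further genes lower in IML were less tied to axon or synapse. Clvs1, a lipid-binding protein of clathrin-coated vesicles, was at 6.61, 6.49, 6.50, 6.36 and 7.05 in IML and at 8.17, 7.28, 7.89, 7.34 and 8.14 in LMN. It separated the pools in every animal, with a difference of -1.16 ± 0.11 (limma adjusted p = 0.0075). Agtr2, a receptor for angiotensin II, differed by -0.86 ± 0.09, and by 0.08 in its other, dimmer probe set. Bnip3, a mitochondrial protein induced by hypoxia, differed by -0.80 ± 0.08, Pdk3, a kinase that restrains pyruvate dehydrogenase, by -0.71 ± 0.06 and Nars, an aminoacyl-tRNA synthetase, by -0.58 ± 0.06.

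The genes Thrsp (-1.09 ± 0.15), Dffa (-1.02 ± 0.17), Sh3bgr (-1.01 ± 0.11), 1110008P14Rik (-1.16 ± 0.23) and Ykt6, a SNARE protein of the Golgi (-0.80 ± 0.13), completed the 15 lowest. C2cd2 (-0.67 ± 0.07) and Ttc39b (-0.62 ± 0.07) had some of the smallest p. The other probe sets of Sh3bgr differed by -0.12 and -0.54 and that of Dffa by -1.23. Those of Ttc39b differed by -0.10, 0.14 and -0.37.

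The defining markers did not settle the cell type of the IML samples. Chat and Slc5a7, which synthesise acetylcholine and recover choline, had no named probe set. Slc18a3, the vesicular acetylcholine transporter, was at 7.15, 7.57, 7.08, 6.81 and 7.29 in IML and at 10.11, 7.12, 8.36, 8.49 and 9.59 in LMN. The differences were -2.96, 0.46, -1.28, -1.68 and -2.29 in animals 1 to 5, so IML was higher in animal 2 alone. The difference was -1.55 ± 0.44 and was not called (limma adjusted p = 0.0897), and without animal 2 it was -2.05 with an adjusted p of 0.0247. Isl1, a transcription factor of motoneurons, was at 5.74 ± 0.27 in IML and 5.61 ± 0.20 in LMN, and peripherin, Prph, at 9.75 ± 1.00 and 10.33 ± 1.37. Neither was called (adjusted p = 0.564 and 0.474). Of 6 cholinergic genes, the choline transporter-like gene Slc44a1 was called higher (0.63 ± 0.10) and none lower, with a median of -0.12. Acetylcholinesterase, Ache, differed by -0.56 ± 0.18 and was not called.

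Markers of connective tissue were higher in IML beside all of the genes above. On the list of meningeal and fibroblast markers, the difference was positive in 15 of 15 measured genes and 9 were called higher, against 4.23% of all genes: Col1a2, Igf2, Col3a1, Col1a1, Mgp, Bgn, Fmod, Pdgfra and Igfbp2. Their median difference was 1.37, and 0.96, 0.69, 1.64, 1.12 and 1.80 in animals 1 to 5. The mean level of the list ran from 9.39 to 10.41 over the IML samples and from 8.03 to 9.58 over the LMN samples. The LMN sample of animal 2 was again the highest of its pool.

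Col1a2, a chain of fibrillar collagen, was at 9.03, 10.39, 11.59, 9.75 and 10.42 in IML and at 7.79, 9.24, 10.34, 7.06 and 7.92 in LMN. The pools overlapped, and within each animal IML was higher by at least 1.15 (difference 1.77 ± 0.26, limma adjusted p = 0.0179). Igf2, a growth factor of the meninges and vessels, was at 12.89, 13.06, 12.59, 12.70 and 12.43 in IML and at 10.78, 12.20, 10.34, 10.44 and 11.51 in LMN, without overlap. It was higher by 1.68 ± 0.25, while its other probe set differed by -0.02. Serping1, an inhibitor of complement C1, was higher by 1.62 ± 0.19, Gjb2, a connexin of leptomeningeal cells, by 1.30 ± 0.12, and Itih5, a hyaluronan-binding protein, by 1.53 ± 0.12 with 0.07 in its other probe set.

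S100a6, a calcium-binding protein of fibroblasts and glia, had the largest difference of the genes named by size, 2.12 ± 0.46 (limma adjusted p = 0.0468). Its IML value was 11.08 in animal 4 and 8.28 to 9.30 in the others, against 6.56 to 7.65 in LMN. Without animal 4 the difference was 1.55, still called, and without any 1 of the other animals it missed the threshold (adjusted p from 0.0591 to 0.131). Anxa1, an annexin of leukocytes and fibroblasts, was higher by 2.11 ± 0.43, and Ahnak, a very large scaffold protein, by 1.92 ± 0.36. Ccn3, a matricellular protein, was higher by 1.62 ± 0.32 and Rcn1, a calcium-binding protein of the endoplasmic reticulum, by 1.24 ± 0.11.

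On the list of 15 genes of microglia and macrophages, 6 were called higher, against 4.23% of all genes, and none lower. They were Lyz2, Tyrobp, Mrc1, Csf1r, C1qa and C1qc, and the list had a median of 0.36 that was positive in 5 of 5 animals. The mean level of the list ran from 6.90 to 7.41 in IML and from 6.64 to 6.77 in LMN. Lyz2, or lysozyme, was higher by 3.92 in animal 3 and by 0.83 to 1.89 in the others (1.88 ± 0.41, limma adjusted p = 0.0462). Without animal 3 the difference was 1.36 with an adjusted p of 0.0225. Of 22 lysosomal genes 5 were called higher, again against 4.23% of all genes, Ctsc, Cd63, Hexa, Gusb and Ctsh, with a median of 0.29. B2m, which stabilises MHC class I at the cell surface, was higher by 1.07 ± 0.11 and was the 1 called of 10 antigen loading genes.

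Glial and vessel markers were less uniform, and their counts stand against 4.23% of all genes called higher. Of 14 astrocyte markers Fabp7, the brain-type carrier of fatty acids, and the lipid carrier Apoe were called higher, by 1.56 ± 0.23 and 1.09 ± 0.12, and the median was 0.11. Of 13 endothelial and mural markers Vwf, the von Willebrand factor (1.79 ± 0.32), and Cdh5, the cadherin of endothelial junctions (0.63 ± 0.12), were called higher, with a median of 0.13. Of 12 oligodendrocyte and myelin markers Gsn, the actin-severing protein gelsolin, was called higher by 1.54 ± 0.13, with a median of 0.22. Fibroblasts also make gelsolin. Of 5 ependymal and Schwann cell markers Vtn, or vitronectin, which mural cells also make, was called higher by 1.10 ± 0.07, with a median of 0.40.

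The 5 red blood cell markers had a median of 0.43, which reached 1.98 in animal 3, and none was called by limma (3 at an unadjusted p under 0.05). None was called either of 8 inhibitory interneuron markers, with a median of 0, or of 4 excitatory interneuron markers, with a median of -0.03 (2 of each list at an unadjusted p under 0.05). Gad1, which makes GABA, was higher in IML in every animal (0.95 ± 0.23) but was not called (adjusted p = 0.0608). Among 11 pan-neuronal genes Gap43 was called higher and Elavl4, a neuronal RNA-binding protein, lower (-0.64 ± 0.14), and the median was -0.35, negative in 5 of 5 animals.

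The connective tissue markers can be set beside Adcyap1, Zic1 and Penk by animal. In animals 1 to 5 the fibroblast median was 0.96, 0.69, 1.64, 1.12 and 1.80. Over the same animals Adcyap1 differed by 2.07, 2.14, 2.99, 1.29 and 1.64, Zic1 by 2.99, 1.23, 2.49, 1.22 and 1.63, and Penk by 2.77, 0.90, 1.02, 1.24 and 2.86. Each was higher in IML in every animal. In LMN, the sample of animal 2 was highest for Zic1 (8.29), Penk (11.12) and the mean level of the fibroblast list (9.58). For Adcyap1 it was that of animal 4 (9.11). The part of connective tissue, macrophages and glia in the differences of Adcyap1, Zic1 and Penk was not tested, nor whether Zic1 came from neurons.

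**Figure D3:**
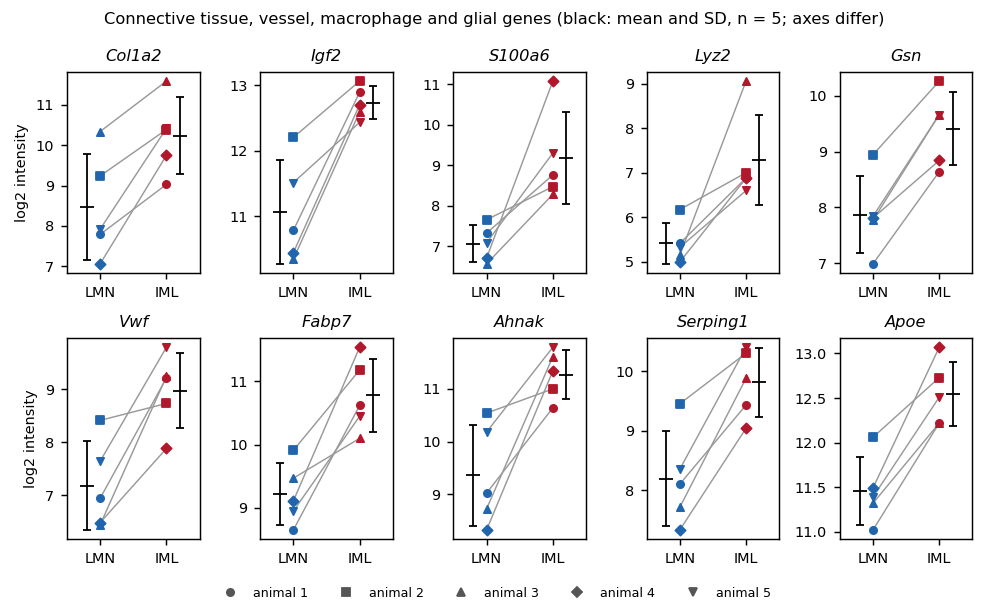
Levels (log2 intensity, axes differ) of 10 genes of connective tissue, vessels, macrophages and glia in LMN (blue) and IML (red) of the same animals, with mean and SD over 5 animals in black. IML is higher in every animal for each gene, and S100a6 in animal 4 and Lyz2 in animal 3 lie far above the other IML samples.

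Genes of transmitter release moved in both directions. In the group of 49 genes for synaptic vesicles and their release, 6 passed the threshold as higher and 5 as lower, against 4.23% and 2.33% of all genes, with a median of -0.06. The higher ones were Vamp2, the vesicle SNARE of fast release (0.77 ± 0.11), Syt17 (0.69 ± 0.08), Syt5, a synaptotagmin of dense-core vesicles (0.52 ± 0.06), and Vamp3, Vamp8 and Vamp5, which serve traffic in many cell types. The lower ones were Vamp1, the vesicle SNARE of motor terminals, which differed by -0.79 ± 0.16, Syt4 (-0.85 ± 0.17), Syt3 (-0.41 ± 0.09), Napa (-0.44 ± 0.10) and Cplx1 (-0.30 ± 0.06). Syt4 belongs to dense-core vesicles too. Of 26 calcium-binding genes Hpca was called higher and Ryr2, a calcium release channel, lower (-0.49 ± 0.11), with a median of -0.05.

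Among 29 receptors for neurotrophic factors and cytokines 4 were called higher and none lower, against 4.23% and 2.33% of all genes, and the median was -0.03. Il6st, the gp130 chain shared by receptors for the interleukin-6 family, was higher by 0.93 ± 0.14 (limma adjusted p = 0.0179), and Osmr, its partner in the oncostatin M receptor, by 1.38 ± 0.30 (adjusted p = 0.0468). The Osmr call held in 1 of the 5 fits that left out an animal, the fit without animal 2, and the Il6st call in all but the fit without animal 5 (adjusted p = 0.0658). Kit, the receptor for stem cell factor, was higher by 1.14 ± 0.23, with 2.31 in animal 4, and Acvr2a, an activin receptor, by 0.69 ± 0.09. Without animal 4 Kit differed by 0.85 with an adjusted p of 0.0203, and without any 1 of the others it missed the threshold (adjusted p from 0.0722 to 0.0822).

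Of 44 axon guidance genes Efnb2, a transmembrane ephrin (0.66 ± 0.10), and Plxnb2, a semaphorin receptor (0.27 ± 0.06), were called higher. That share is near the 4.23% of all genes, and the median was 0.01. The Plxnb2 call was lost whichever animal was left out, and the other Plxnb2 probe set differed by -0.06. None of 8 reelin pathway genes was called by limma (2 at an unadjusted p under 0.05), although Reln itself was higher in every animal (1.24 ± 0.29, adjusted p = 0.0557). Genes of the perineuronal net gave 0 calls of 9 and 3 at an unadjusted p under 0.05. Of 13 regulators of G protein signalling Rgs11 was called lower (-0.52 ± 0.08), against 2.33% of all genes. Of 13 ion pumps Atp1b3 (0.78 ± 0.14) and Fxyd1 (0.58 ± 0.08), both partners of the sodium pump, were called higher, against 4.23%.

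Housekeeping groups had medians between -0.14 and 0.23. Of 35 cytosolic ribosomal protein genes 9 were called higher, against 4.23% of all genes, and none lower, 28 had a positive difference and the median was 0.23, positive in 5 of 5 animals. Rps18 (0.53 ± 0.09), Rps19 (0.50 ± 0.09) and Rpl8 (0.34 ± 0.05) were among them. The difference was negative in 62 of 70 genes of oxidative phosphorylation, with a median of -0.12 beside -0.02 over all genes. Cytochrome c, Cycs, was the 1 called of them (-0.34 ± 0.07), against 2.33% of all genes called lower. The Cycs call was lost whichever animal was left out. The median of that list was -0.40 in animal 3 and near 0 in animals 1 and 5. Proteasome subunits had a median of -0.14 over 37 genes, with Psmc6 and Psmd12 called lower, against 2.33% of all genes. Glycolysis enzymes had a median of -0.13 over 16 genes, with the hexokinase Hk2 called higher (0.46 ± 0.09). No gene was called by limma among 54 chaperones (16 at an unadjusted p under 0.05, median -0.08) or 16 genes of cholesterol synthesis and uptake (2 at that level, median -0.06). Among 15 motoneuron disease genes Nefh alone was called, and the median was -0.06.

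**Figure D4:**
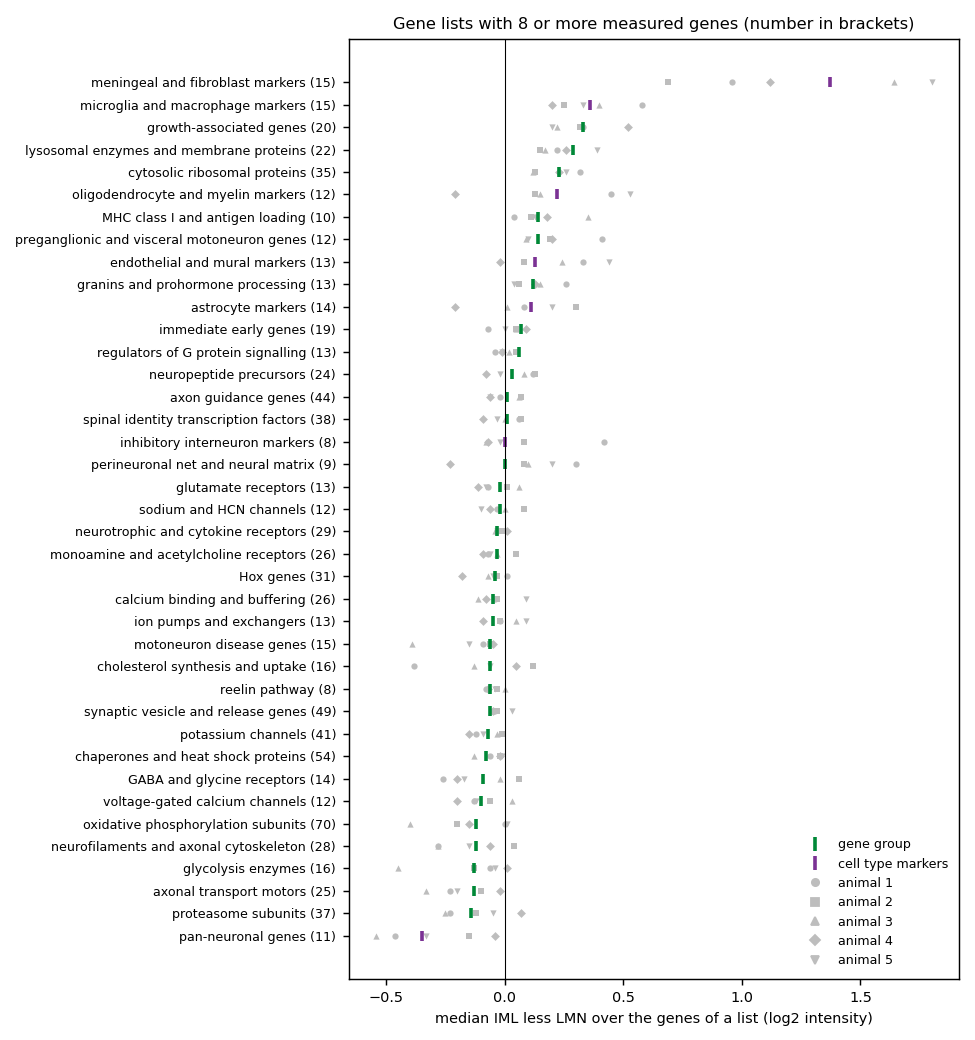
Median difference between IML and LMN (log2) over the measured genes of each list with 8 or more of them, for the mean of the animals (coloured bar) and for each animal (grey symbols). Meningeal and fibroblast markers lie at 1.37, apart from the other lists, growth-associated genes at 0.33 and pan-neuronal genes at -0.35.

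The measurements repeated closely between technical arrays and less closely between animals. The 2 arrays of a sample correlated over all probe sets at 0.983 to 0.998, and the mean differences from Set 1 and from Set 2 at 0.903. The differences of 2 animals correlated at 0.308 to 0.617 over the 10 pairs of animals. Probe sets are not independent replicates, and these values describe the arrays. The SD of the differences over all probe sets was 0.21 in animal 2 and 0.33 to 0.42 in the others.

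**Figure D5:**
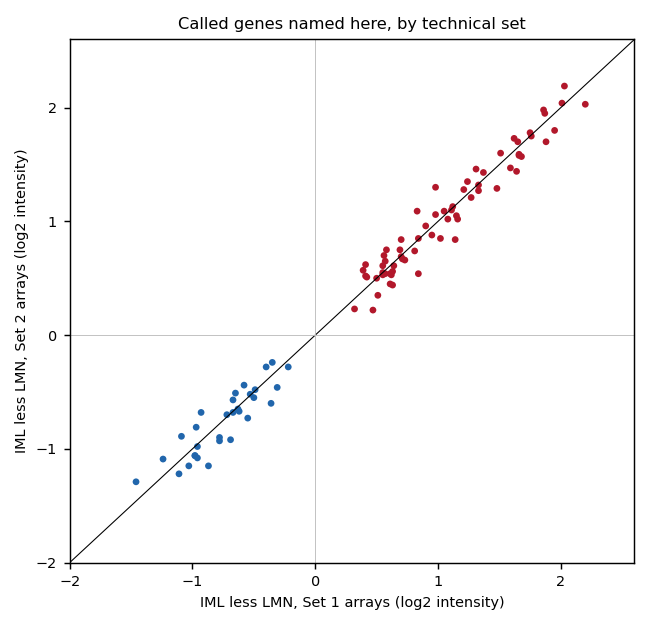
Difference between IML and LMN (log2) of the 98 called genes named by the rule, from the Set 1 arrays (horizontal) and the Set 2 arrays (vertical), each over 5 animals; the line marks equal values. Every gene has the same sign in both sets, which were averaged into the values that selected these genes, so this is no separate support.

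Medial motoneurons, which lay outside the model, fell between the pools for most of these genes. The MMN mean lay between the IML and LMN means in 664 of the 705 called probe sets (94.2%) and in 46.6% of all probe sets, and a called gap leaves more room for it. It did so in 30 of the 30 genes named by size, nearer to LMN in 20 of them. Over the 705 called probe sets the MMN mean was nearer to LMN in 402. Adcyap1 was at 7.83 ± 0.62 in MMN, Penk at 10.86 ± 0.49 and Nefh at 12.20 ± 0.25, each nearer to LMN. Zic1 was at 8.30 ± 0.99, nearer to the IML mean of 8.99 than to the LMN mean of 7.08.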

How the data were processed

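The 20 IML and LMN arrays of 5 animals were analysed. Per the labels, normalization by the authors used R-pack and inverse logs were deposited, which are linear intensity values. Its method is not given in the sources used here. Array medians were 132.049 to 145.908. No detection calls were used, so a dim probe set cannot be set against background, and double amplification can add spread between targets.

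After 66 control probe sets were left out, values were taken to log2 without an offset and averaged over the 2 arrays of a sample. Of 12422 probe sets, 10833 had 1 gene symbol, 396 several and 1193 none. Only those with 1 symbol were named, with symbols taken through the gene identifier for 10817.

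The fit used limma 3.58.1 in R 4.3.3, with pool and animal as fixed terms and eBayes, two-sided, and a Benjamini-Hochberg threshold of 0.05. The labels state that all cell types came from each animal. Same-animal samples deviated from their pool means together, with correlations of 0.529, 0.682, 0.288, 0.393 and 0.293. The script was checked on simulated data.

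Genes were named from those called with a mean in the higher pool of at least 7.11, the median over probe sets: the 15 highest and 15 lowest differences and the 10 smallest p in each direction. Up to 4 members with the smallest p of each of 45 lists and the markers in the text were added. Called list members beyond these, among them Vamp5, Vamp8, Vamp1, Syt3, Syt4, Napa and Cplx1, were named after their values were seen. The comparison, the genes and the lists were chosen with earlier results of these data known. Alternatives changed the block, the arrays used, scaling, dim values, the variance model and the threshold, and left out each animal.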

Additional observations from a re-analysis of the deposited data

Results flagged for a closer look

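In a few genes 1 animal lay far from the other 4, by Dixon's criterion for 5 values. This held for 9 of the 204 named gene differences and 3 of the 45 list medians, and chance alone gives about 1 in 20. Animal 4 accounted for 4 of the genes. Grik1, a kainate receptor, differed by 3.05 in animal 4 and by 0.14 to 0.56 in the others. Kit differed by 2.31 there (others 0.64 to 0.93) and the cathepsin Ctsl by 1.69 (0.34 to 0.68). Gad2, which makes GABA, differed by -0.05 in animal 4 and by 0.15 to 0.19 in the others.

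Animal 3 stood apart in 3 genes. Alas2, a haem enzyme of red cells, differed by 1.57 against -0.02 to 0.13 in the others, the proteoglycan Fmod by 2.14 (0.83 to 1.15) and Hk2 by 0.88 (0.26 to 0.41). In animal 1 Nefh differed by -1.64 (others -0.99 to -0.75), and in animal 2 the potassium channel Kcnk2 by 1.02 (0.24 to 0.45). Among lists, the synaptic vesicle median was 0.03 in animal 5 (others -0.05 to -0.03), the motoneuron disease median -0.39 in animal 3 (-0.15 to -0.05) and the excitatory interneuron median 0.49 in animal 2 (-0.15 to 0.01).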

How the results depend on the processing

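The size of the call set depended on the model, while none of the 98 called named genes turned its sign in any alternative. Each of them had 1 sign in 5 of 5 animals and in both sets. Most of the alternatives therefore could not turn it, and this is no separate support. Against 705 called probe sets (451 higher, 254 lower), the unpaired fit with no replicate block called 126 (98, 28), all of them among the 705, and the animal as a random replicate block 1193 (720, 473). All 20 arrays in the fit, with the 2 arrays of a sample modelled as correlated, gave 1862 (1067, 795). A fit of all 3 pools gave 1116 (678, 438), an offset of 32 gave 406 (252, 154), and a threshold of 0.01 gave 56 (46, 10). A floor of 32 left 12 (7, 5), and only 3 of the 98 called named genes stayed called. With that floor 2487 probe sets had an unadjusted p under 0.05, against 2752 in the main fit. The floor sets many dim probe sets to the same value in every array, and its part in the lost calls was not tested. Leaving out each animal gave 113 to 420 called, 88 to 294 higher and 25 to 128 lower. Set 1 or Set 2 alone, other scalings, leaving out dim or suffixed probe sets, and the trended robust variance stayed within 1.5 times. Without the block, Adcyap1, Zic1 and Bcl6 missed the threshold (adjusted p = 0.0646, 0.0593 and 0.0727) and Penk and Nefh passed. With 5 animals and 4 residual degrees of freedom, a difference that missed the threshold does not show equal levels, and dim probe sets limit what can be said of Nos1 and Isl1.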
